A study of Mus musculus with 4 samples.

Results

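The 7 genes described here were *S100a4*, *S100a6*, *S100a8*, *S100a9*, *S100a10*, *S100a11* and *S100a13*, taken as a named list of S100 alarmin and calcium-binding genes and matched by gene ID, out of 31950 genes listed in both single-cell libraries and 17 S100 genes listed in both. S100 proteins are small, mostly dimeric proteins that bind calcium through EF-hand loops and then dock onto target proteins inside the cell. Some are also released from stressed or activated cells and act as alarmins, signals of danger that are read by receptors on neighboring cells. In the gut, *S100a8* and *S100a9* encode the subunits of calprotectin, which neutrophils and monocytes carry in large amounts and which is measured in stool as a sign of inflammation, whereas the other 5 genes act in many cell types on the cytoskeleton, membranes and secretion.

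The libraries held 5′ single-cell RNA of small intestinal lamina propria cells from 12-week-old WT mice and A20ZF7 mice. A20ZF7 mice carry knock-in point mutations in the seventh zinc finger of A20, the product of *Tnfaip3*, that abolish its binding of linear (M1-linked) ubiquitin in every cell. Each genotype was 1 library in which cells of 2 mice were pooled, after negative selection for T cells and innate lymphoid cells (ILCs), with 60000 cells collected per genotype. With 1 library per genotype no difference between genotypes could be tested. All intervals below are exact 95% intervals that cover counting error only, and differences between mice, cell isolation and libraries cannot be told apart from genotype.

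After filtering, 14704 WT cells (median 1060 UMIs per cell) and 43162 A20ZF7 cells (median 853 UMIs) remained. A UMI is a tag that marks 1 captured RNA molecule, and levels are given in CPM, the UMIs of a gene scaled to the same fixed total of UMIs in every group of cells. Clusters, which were computed without S100 genes and named only from marker lists, gave 4126 WT and 15156 A20ZF7 T and innate lymphocytes, 575 and 2385 B-lineage cells (plasma cell-like), 281 and 1415 myeloid cells (1 cluster, macrophage or monocyte-like), 7786 and 15842 stromal cells, and 572 and 322 epithelial cells. Clusters with 1364 WT and 8042 A20ZF7 cells stayed unnamed, the largest of them cluster 1 with 7.46% of WT and 10.4% of A20ZF7 cells, and a cluster led by dividing genes with 1.06% and 5.24%. Despite the selection for lymphocytes, stromal cells were the most numerous class in WT. In A20ZF7 the order of stromal cells and lymphocytes depends on whether cluster 1, described further on, is counted as lymphocytes. Markers of other classes were found in each class. UMIs of 8 fibroblast markers, all 8 of them detected, summed to 185 CPM in WT lymphocytes and 208 CPM in A20ZF7 lymphocytes. UMIs of 5 T cell markers summed to 295 and 950 CPM in stromal cells and to 709 and 1028 CPM in myeloid cells. Separately, the libraries shared 2101 of their barcodes that passed the limit of 200 genes. How many would be shared by chance was not computed, so nothing is drawn from this count. Fewer molecules per cell and fewer cells of a kind cannot be told apart in a class sum.

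The genes lie on mouse chromosome 3 (GRCm38.p6), where the RefSeq gene table placed 15 of its 18 S100 protein-coding genes. *S100a13* (chr3:90514233-90524581), *S100a4* (chr3:90603770-90606045), *S100a6* (chr3:90612894-90614414), *S100a8* (chr3:90669071-90670034) and *S100a9* (chr3:90692630-90695721) lie in a block of 13 S100 genes between 90511034 and 91107429. *S100a11* (chr3:93520496-93526288) and *S100a10* (chr3:93555117-93564645) lie apart from the block, next to each other. The RefSeq promoter table held 6 of the 7 members, and *S100a10* had no entry. The promoters of the calprotectin pair and of the 2 members that differed most between the libraries in lymphocytes are shown from 100 bases before to 30 bases after the start site, 5′ to 3′ on the gene's strand, with matches to TATAAA (the letters of the TATA box) or CACGTG (those of an E-box) in capitals:
S100a8, chr3:90668971-90669100, plus strand: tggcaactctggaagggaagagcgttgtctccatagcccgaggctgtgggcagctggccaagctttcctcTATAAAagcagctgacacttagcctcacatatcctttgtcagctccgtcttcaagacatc
S100a9, chr3:90695692-90695821, minus strand: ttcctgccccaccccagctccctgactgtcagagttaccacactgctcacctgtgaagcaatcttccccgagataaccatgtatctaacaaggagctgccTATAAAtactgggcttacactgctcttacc
S100a4, chr3:90603670-90603799, plus strand: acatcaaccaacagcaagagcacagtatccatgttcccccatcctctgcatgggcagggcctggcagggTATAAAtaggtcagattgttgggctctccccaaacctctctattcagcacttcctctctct
S100a6, chr3:90612794-90612923, plus strand: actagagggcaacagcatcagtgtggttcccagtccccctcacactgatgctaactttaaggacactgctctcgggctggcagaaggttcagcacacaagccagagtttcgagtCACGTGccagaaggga
Motifs were searched on both strands of the full window of 250 bases before to 50 bases after the start site. TATAAA was found in 3 of 6 member promoters, those of *S100a4*, *S100a8* and *S100a9*, and in 13.6% of all 32851 promoters in the table. It began at position -30 from the start site in *S100a8* and -31 in *S100a4*, but at position 1, on the start site itself, in *S100a9*. CACGTG was found in 2 of 6 (*S100a6* and *S100a11*) and in 7.15% of all promoters, TGANTCA (an AP-1 letter pattern) in 1 of 6 (*S100a11*) and in 7.81%, and TTGCNNAA (a C/EBP pattern) in 1 of 6 (*S100a9*) and in 10.8%. GGGCGG, a GC box, occurred in 2 of 6 and in 35.7%.

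*S100a8* and *S100a9*, the calprotectin genes, were found almost entirely in the A20ZF7 library and there in a handful of cells. In WT myeloid cells *S100a8* was at 5.25 CPM (0.636 to 18.96, 2 UMIs) and *S100a9* had 0 UMIs, against a floor of 7.87 CPM that 3 UMIs would give. A20ZF7 myeloid cells held 64.3 CPM of *S100a8* (53.3 to 76.9, 119 UMIs) and 99.4 CPM of *S100a9* (85.6 to 115, 184 UMIs). The intervals of the libraries did not overlap for either gene. They treat each UMI as independent, although 98.3% of the A20ZF7 myeloid UMIs of the pair came from 7 cells, described below. The ratio of A20ZF7 to WT was 12.2 (3.32 to 102) for *S100a8*, and *S100a9* was at least 12.6-fold higher against the floor of the WT library. The UMI minimum for a kept cell was 676 in WT and 397 in A20ZF7, so these levels come from unlike filters. With the limit of 200 genes alone in both libraries the *S100a8* ratio was 21.3, and with a minimum of 1000 UMIs in both it was 2.19. Neither gene reached the 100 CPM used as the level filter for counting genes.

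The 2 genes occurred together in single barcodes of the A20ZF7 library. Among barcodes with at least 200 genes, 55 A20ZF7 barcodes held 502 UMIs of the pair and 5 WT barcodes held 11. In A20ZF7, 9 barcodes with 14 or more UMIs of the pair (65, 64, 56, 54, 43, 38, 36, 28 and 14 UMIs) held 398 of the 502 UMIs, 79.3%. The next barcode held 11 UMIs, and the highest WT barcode held 6. Of the 9 barcodes, 7 were kept as cells, all in the myeloid cluster, where they made up 298 of 303 UMIs of the pair, 98.3%. Without these 7 cells, the A20ZF7 myeloid level was 1.62 CPM (0.335 to 4.75) for *S100a8* and 1.08 CPM for *S100a9*. Of these 7 cells, 5 had fewer UMIs in all (408 to 619) than the WT minimum of 676. Over barcodes with at least 200 genes, a limit that was the same in both libraries, the share with 14 or more UMIs of the pair was 0.0171% (0.00782 to 0.0325) in A20ZF7, 9 of 52626, and 0 of 28848 in WT, which allows a share of up to 0.0128%. The intervals of the libraries overlapped. Among myeloid cells the share was 0.495% (0.199 to 1.02) in A20ZF7, 7 of 1415, and 0 of 281 in WT, which allows up to 1.30%. The 281 WT myeloid cells are therefore too few to show a difference in this share.

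**Figure D1:**
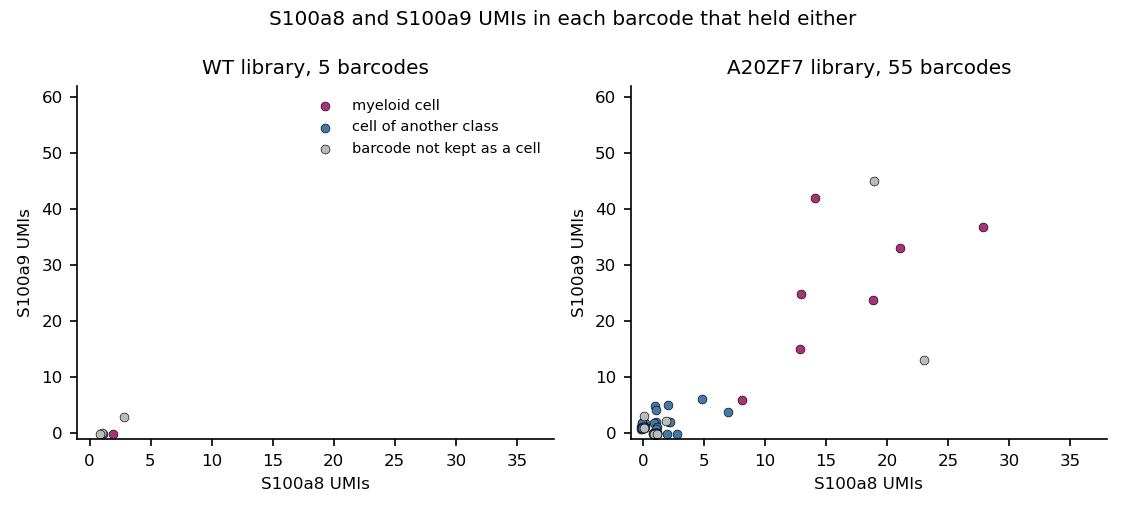
*S100a8* UMIs (x axis) against *S100a9* UMIs (y axis) for each barcode with at least 200 genes that held either gene, with WT on the left (5 barcodes) and A20ZF7 on the right (55 barcodes), moved slightly so that overlapping points show. Purple points are myeloid cells, blue points cells of another class and gray points barcodes not kept as cells, and the 9 A20ZF7 barcodes with 14 or more UMIs of the pair stand apart from the rest, which sit near the origin.

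Some other genes of neutrophils were found in the 9 barcodes and others were not. *Retnlg*, a resistin-like gene of neutrophils, was found in 8 of the 9 barcodes (61 UMIs) and in 0 of the other 1403 A20ZF7 myeloid cells without the pair. All A20ZF7 barcodes with at least 200 genes held 77 *Retnlg* UMIs, some of them in endothelial-like, smooth muscle or pericyte-like and unnamed cells. *Cxcl2*, a neutrophil-attracting chemokine, was found in 9 of 9, *Wfdc17* in 8, *Il1b* in 7, *Lcn2* in 7 and *Csf3r*, the G-CSF receptor, in 5. Of these, *Wfdc17*, *Il1b* and *Cxcl2* were also found in 503, 407 and 319 of the 1403 myeloid cells without the pair. In the 12 myeloid cells with a UMI of the pair, *Ly6g*, *Camp*, *Ltf*, *Cd177* and *Itgam* had 0 UMIs, and *Cxcr2* and *Ngp* were found in 1 cell each. *C1qa*, a macrophage complement gene found in 576 of the other 1403 cells, had 0 UMIs in the 9 barcodes. These barcodes were small, with 320 to 1113 UMIs in all (median 436), of which the pair took 3.42% to 18.1%. Outside the myeloid class, the pair was found in 5 A20ZF7 lymphocytes (9 UMIs), 17 stromal cells (51 UMIs), 9 unnamed cells (18 UMIs), 4 B-lineage cells (10 UMIs) and 1 epithelial cell. WT lymphocytes, with 4126 cells, had 0 UMIs of both genes, whereas A20ZF7 lymphocytes were at 0.305 CPM of *S100a8* and 0.381 CPM of *S100a9*, levels at which 1 barcode can decide the value.

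*S100a4*, also known as fibroblast-specific protein, binds non-muscle myosin and is linked to cell motility. In T and innate lymphocytes its level was 68.3 CPM (60.8 to 76.5) in WT and 113 CPM (107 to 119) in A20ZF7, a ratio of 1.66 (1.46 to 1.88). *S100a6* encodes calcyclin, which binds the ubiquitin ligase adaptor Cacybp and annexins. Its lymphocyte level was 179 CPM (167 to 192) in WT and 512 CPM (500 to 524) in A20ZF7, a ratio of 2.86 (2.65 to 3.08). Both genes were higher in the A20ZF7 lymphocytes by more than the counting error, and *S100a6* was the 1 of the 5 members that passed the level filter there (a minimum of 100 CPM and 20 UMIs on the higher side) to differ by at least 2-fold. Of all 1857 genes that passed the same filter, 5.39% differed by at least 2-fold in either direction, with a median ratio of 1.02.

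The WT mice, told apart by hashtag antibodies, show how far 2 mice of 1 library differed. In lymphocytes *S100a6* was at 149 CPM in mouse 1, 177 CPM in mouse 2 and 228 CPM in cells with no hashtag call, all below the 512 CPM of the A20ZF7 library. *S100a4* was at 64.4, 51.8 and 98.4 CPM in the same order, also all below the A20ZF7 value of 113 CPM. A20ZF7 cells could not be split by mouse, because the deposited A20ZF7 antibody files are identical to those of WT. Leaving out the cells called as mouse 1 gave an *S100a6* ratio of 2.59, and leaving out those called as mouse 2 gave 2.84. The 1217 WT lymphocytes with no call, which may come from either mouse, stayed in both.

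The lymphocyte class was made up differently in the libraries, so the ratios were also taken within its 5 clusters. Th17-like cells made up 3.20% of WT and 33.3% of A20ZF7 lymphocytes, and ILC2-like cells 40.5% and 13.6%. The geometric mean of the ratios within clusters was 1.83 for *S100a6*, below 2-fold, and 1.45 for *S100a4*. In CD8 T-like cells *S100a6* was at 153 CPM (127 to 183) in WT and 755 CPM (724 to 787) in A20ZF7, a ratio of 4.92 (4.10 to 5.96), and *S100a4* at 46.5 and 128 CPM, a ratio of 2.75 (1.96 to 3.97). Both were past 2-fold, 2 of 5 members that passed the filter, where 4.61% of all genes were. Among cells with at least 1000 UMIs the CD8 T-like ratios were 1.85 for *S100a6* and 1.60 for *S100a4*, and at the coarser clustering resolution of 0.4 the *S100a6* ratio was 2.51.

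A further group of lymphocyte-like RNA stood outside the class. Cluster 1, with 1097 WT and 4499 A20ZF7 cells, scored highest on the T cell marker list and was led by *Il12rb2*, *Cd28* and *Cd40lg*. It kept no name because its 10 leading genes held more listed markers of another class (*Defa24*, a defensin gene of Paneth cells) than of lymphocytes. It held 208 CPM of *S100a6* in WT (180 to 239) and 566 CPM (538 to 595) in A20ZF7, a ratio of 2.72 (2.34 to 3.17), and 34.7 and 140 CPM of *S100a4*, a ratio of 4.04 (2.83 to 5.96). These 2 were again the members past 2-fold of 5 that passed, where 5.11% of all genes were. Counting this cluster as lymphocytes gave class ratios of 2.83 for *S100a6* and 1.89 for *S100a4*.

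ILC2-like cells, which carry type 2 cytokine genes, had the lowest levels of both genes among the lymphocyte groups of each library, although their WT *S100a4* interval overlapped that of CD8 T-like cells. *S100a6* was at 85.8 CPM in WT and 272 CPM in A20ZF7 ILC2-like cells, a ratio of 3.17 (2.65 to 3.81), and was the 1 of 4 members past 2-fold there, against 7.0% of all genes. *S100a4* was at 25.1 and 55.7 CPM, a ratio of 2.22 (1.56 to 3.19), below the level filter. In ILC3-like cells, the innate source of *Il22*, *S100a4* was at 123 CPM (106 to 142) in WT and 127 CPM (114 to 141) in A20ZF7, a ratio of 1.03 (0.860 to 1.24), while *S100a6* was at 235 and 396 CPM, a ratio of 1.69 (1.49 to 1.91). None of the 5 members that passed the filter was past 2-fold in ILC3-like cells, where 4.9% of all genes were.

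Th17-like and Treg-like cells had the highest WT levels of *S100a6* among the lymphocyte groups. *S100a6* was at 653 CPM (524 to 804) in 132 WT Th17-like cells and 468 CPM (448 to 488) in 5052 A20ZF7 Th17-like cells, a ratio of 0.716 (0.579 to 0.897). *S100a4* was at 156 CPM (96.4 to 238) and 118 CPM (108 to 129), with overlapping intervals. Within WT, Th17-like *S100a6* was at 486 CPM in mouse 1, 398 CPM in mouse 2 and 1191 CPM in cells with no call, so the A20ZF7 value lay between the WT mice. Treg-like cells held 687 CPM of *S100a6* in WT (84 cells, 524 to 885) and 757 CPM in A20ZF7 (708 to 810), with overlapping intervals. No member that passed the filter was past 2-fold in either group, 0 of 5 in Th17-like cells against 6.67% of all genes and 0 of 5 in Treg-like cells against 8.22%.

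**Figure D2:**
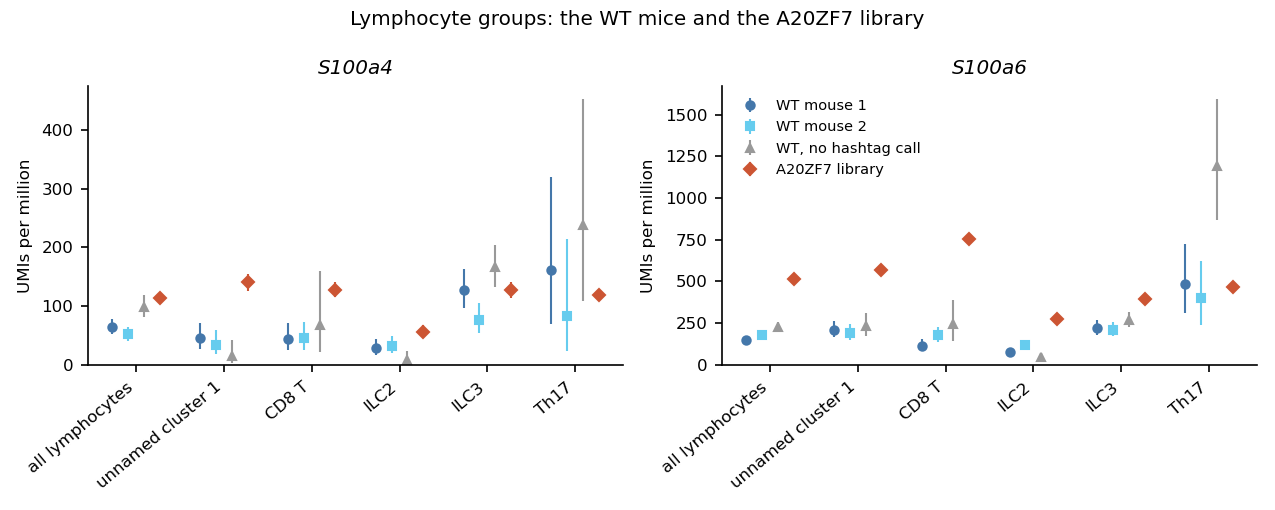
Level in CPM (y axis) of *S100a4* (left) and *S100a6* (right) in lymphocyte groups and unnamed cluster 1 (x axis) for WT mouse 1, WT mouse 2, WT cells with no hashtag call and the A20ZF7 library, with bars for exact 95% Poisson intervals. The A20ZF7 points of *S100a6* lie above every WT point in all lymphocytes, unnamed cluster 1, CD8 T-like, ILC2-like and ILC3-like cells, and between those of WT mouse 1 and WT mouse 2 in Th17-like cells.

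The order of the *S100a6* levels across WT lymphocyte groups was Treg-like and Th17-like (overlapping), ILC3-like, CD8 T-like and ILC2-like, with no overlap between the last 3. In A20ZF7 the order was Treg-like and CD8 T-like (757 and 755 CPM, overlapping), Th17-like (468 CPM), ILC3-like (396 CPM) and ILC2-like (272 CPM), with no other overlap between neighbors. *S100a4* in A20ZF7 ranged from 118 to 128 CPM in 4 of the 5 groups, with overlapping intervals, and was at 55.7 CPM in ILC2-like cells. In WT it spanned 25.1 CPM in ILC2-like to 156 CPM in Th17-like cells.

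**Figure D3:**
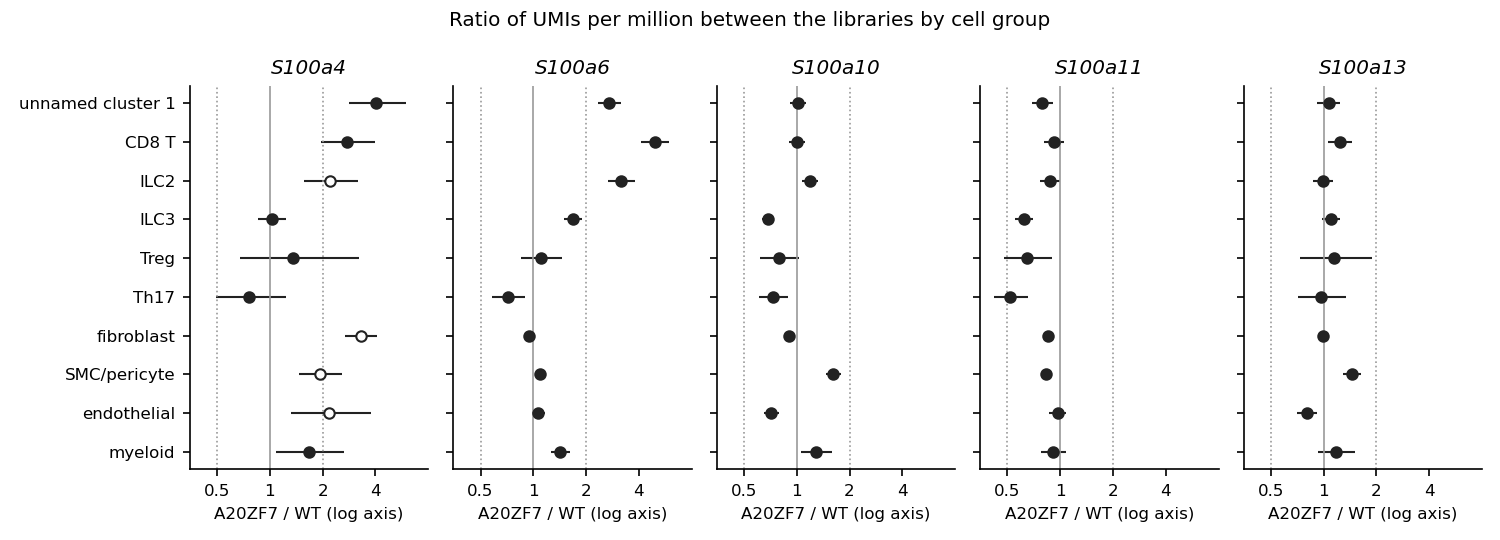
Ratio of A20ZF7 to WT levels (x axis, log scale) of the 5 widely found members in 10 cell groups (y axis), with exact 95% intervals as bars, filled points where the gene passed the level filter and open points where it did not. Dotted lines mark 2-fold either way, and *S100a6* runs from 4.92 in CD8 T-like to 0.716 in Th17-like cells, whereas *S100a13* stays between 0.802 and 1.45.

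Free RNA held these genes too. Barcodes with 50 to 150 UMIs, which hold mostly RNA from outside cells, were at 506 CPM of *S100a6* in WT and 539 CPM in A20ZF7, with overlapping intervals (468 to 547 and 502 to 577), and at 35.8 and 63.0 CPM of *S100a4*. Barcodes with 10 to 50 UMIs were at 547 CPM of *S100a6* in WT (502 to 595) and 1017 CPM in A20ZF7 (883 to 1167), and at 71.9 and 244 CPM of *S100a4*, higher in A20ZF7 as in lymphocytes. If every immunoglobulin UMI in a lymphocyte came from free RNA, free RNA made up 8.88% of WT and 13.8% of A20ZF7 lymphocyte UMIs on the scale of these barcodes. With that share taken off, the lymphocyte ratio was 3.45 for *S100a6* and 1.70 for *S100a4*, and with the share from barcodes with 10 to 50 UMIs it was 2.81 and 1.37. In lymphocytes without a fibroblast-marker UMI (3620 WT and 13184 A20ZF7 cells) *S100a6* was at 177 CPM in WT and 508 CPM in A20ZF7, a ratio of 2.88 (2.65 to 3.12). Cells with a UMI of *S100a6* were 11.3% of WT and 25.7% of A20ZF7 lymphocytes, and 6.69% and 18.3% when each cell was thinned to 500 UMIs, for which 0 WT and 2836 A20ZF7 cells with fewer UMIs were left out. For *S100a4* the shares were 5.48% and 7.65%, and 2.88% and 5.15% after thinning, at median depths of 898.5 UMIs for WT and 745 UMIs for A20ZF7 lymphocytes. In epithelial cells, given as a class that should lack the gene, 1.05% of WT cells (6 of 572, median 3793 UMIs) held an *S100a4* UMI. In A20ZF7 the share was 6.21% (20 of 322, median 894.5 UMIs, 3.83% to 9.43%). The share of A20ZF7 lymphocytes (7.24% to 8.09%) lay within that interval, whereas the WT lymphocyte share of 5.48% was above the WT epithelial share. The A20ZF7 epithelial cells are no clean background. Cluster 23, which held most of them, was at 578 CPM of the pan-leukocyte gene *Ptprc* over both libraries, against 67.4 CPM in epithelial cluster 19.

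*S100a4* depended on barcode size more than the other members did. Its level was 1962 CPM in WT barcodes with 1 to 9 UMIs, 487 CPM with 10 to 19, 52.0 CPM with 20 to 49, 36.5 CPM with 50 to 199, 44.7 CPM with 200 to 799 and 32.0 CPM with 800 or more. In A20ZF7 the levels in the same order were 1819, 886, 102, 60.5, 82.9 and 84.9 CPM. *S100a6* went from 2399 CPM in the smallest to 1301 CPM in the largest WT barcodes, with a low of 482 CPM at 20 to 49 UMIs. *Actb*, given for scale, was at 5644 CPM in the smallest and 3318 CPM in the largest WT barcodes. Barcodes with fewer than 200 genes held 1083 of the 2212 *S100a4* UMIs of the WT library.

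**Figure D4:**
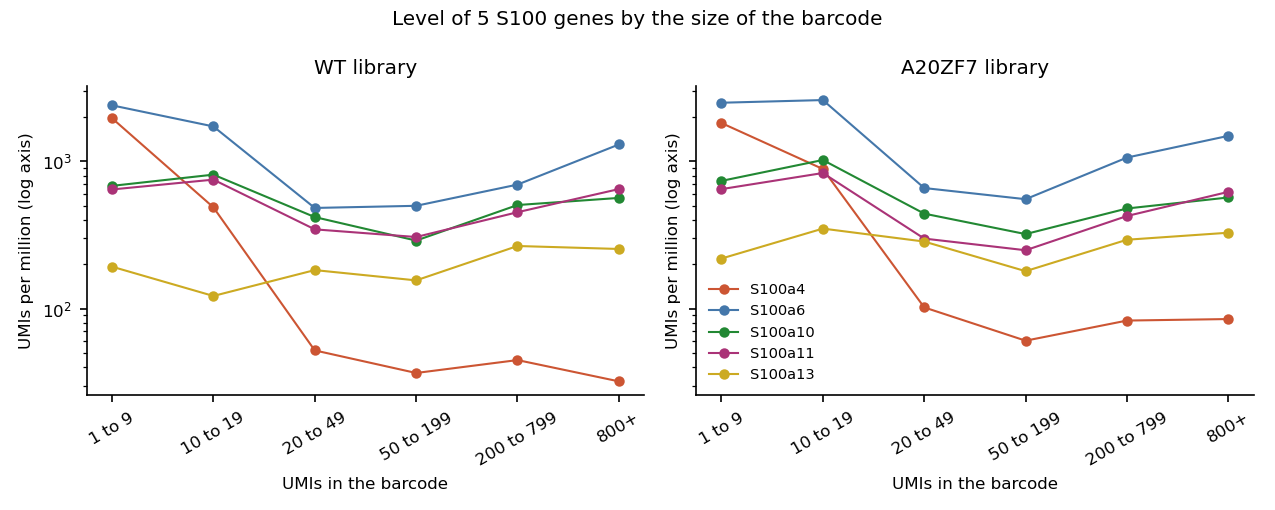
Level in CPM (y axis, log scale) of 5 members by the number of UMIs in the barcode (x axis), with WT on the left and A20ZF7 on the right and a line for each gene. *S100a4* has the steepest change, from 1962 CPM in WT barcodes with 1 to 9 UMIs to 32.0 CPM in those with 800 or more.

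Stromal cells held the highest level of *S100a6* of all classes, 2492 CPM in WT and 2547 CPM in A20ZF7, a ratio of 1.02 (1.01 to 1.04). WT stromal cells were at 2109 CPM in mouse 1, 2072 CPM in mouse 2 and 2806 CPM with no call. The A20ZF7 level thus lay above both WT mice and below the cells with no call. The stromal class level was 13.9-fold above lymphocytes in WT and 4.98-fold in A20ZF7. *S100a11* was also at least 2-fold higher in stromal cells than in lymphocytes, 3.32-fold in WT and 3.22-fold in A20ZF7, while *S100a10* (1.03 and 1.07) and *S100a13* (1.34 and 1.31) were not. *S100a6* and *S100a11* were 2 of 4 members that passed the filter in WT, where 25.8% of all genes were past 2-fold in that direction, and 2 of 5 in A20ZF7, where 18.8% were. *S100a4* was lower in stromal cells than in lymphocytes, 0.309-fold in WT and 0.483-fold in A20ZF7. No member that passed the filter was past 2-fold between genotypes in stromal cells, 0 of 4 against 10.6% of all genes.

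*S100a4* was below the level filter in stromal cells, at 21.1 CPM (18.4 to 24.1) in WT and 54.7 CPM (51.4 to 58.1) in A20ZF7, a ratio of 2.59 (2.24 to 3.02). Its A20ZF7 level was above the WT level in each of the 5 fibroblast-like clusters, at 17.0 and 54.9 CPM in cluster 0, 9.70 and 52.5 in cluster 5, 19.3 and 50.01 in cluster 7, 15.98 and 58.5 in cluster 11, and 18.8 and 27.9 in cluster 10, where the interval of the ratio spanned 1. Cluster 0 held 5.06% of WT and 36.2% of A20ZF7 stromal cells, and cluster 10 held 25.6% and 1.26%. T cell marker UMIs moved with it, being present in 17.8% of WT and 45.9% of A20ZF7 stromal cells. In stromal cells with no UMI of lymphocyte markers (5236 WT and 5887 A20ZF7 cells) *S100a4* was at 14.3 and 22.5 CPM, a ratio of 1.58 (1.18 to 2.11). These markers were the T cell markers, *Ptprc*, *Il7r* and *Thy1*, so any stromal cells with *Thy1* RNA of their own were left out too. Without cells with 2 or more UMIs of another class the ratio was 1.23. That last subset kept 994796 of 10190676 WT and 501817 of 19307637 A20ZF7 stromal UMIs. Its ratio rests on few *S100a4* UMIs and is given without an interval. The part of lymphocyte RNA in the stromal *S100a4* value was not tested beyond these subsets.

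Among stromal groups *S100a6* ranged from fibroblast-like cells (3062 CPM in WT, 2893 CPM in A20ZF7) over smooth muscle or pericyte-like cells (1462 and 1600 CPM) to endothelial-like cells (969 and 1035 CPM), with no overlap between these 3 in either library, while 20 WT and 43 A20ZF7 glia-like cells were at 3551 and 2979 CPM. WT fibroblast-like cells were at 2662 CPM in mouse 1, 2648 CPM in mouse 2 and 3360 CPM with no call. The A20ZF7 fibroblast-like level thus lay above both WT mice, although below the WT library. Between genotypes the fibroblast-like clusters went both ways, with 2041 and 2872 CPM in cluster 0, but 4282 and 3445 CPM in cluster 7, 2865 and 2500 CPM in cluster 10 and 3818 and 3087 CPM in cluster 11. In cluster 5, at 2342 and 2295 CPM, the intervals overlapped. In the 3 larger stromal groups 0 of 4 members that passed the filter were past 2-fold, against 8.57% of all genes in fibroblast-like, 9.77% in smooth muscle or pericyte-like and 14.4% in endothelial-like cells.

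In myeloid cells *S100a6* was at 727 CPM (644 to 818) in WT and 1038 CPM (992 to 1085) in A20ZF7, a ratio of 1.43 (1.26 to 1.63). The WT mice lay far apart, at 899 CPM in mouse 1 and 466 CPM in mouse 2. The ratio was 1.73 without the cells called as mouse 1 and 1.202 without those called as mouse 2, with cells of no call kept in both. *S100a4* was at 63.0 CPM (40.4 to 93.7) and 105 CPM (90.6 to 121), with overlapping intervals. None of the 5 members that passed the filter was past 2-fold between genotypes in myeloid cells, where 4.3% of all genes were. Against lymphocytes of the same library *S100a6* was 4.06-fold higher in WT myeloid cells, the 1 of 4 members that passed the filter to be past 2-fold, where 14.5% of all genes were. In A20ZF7 it was 2.03-fold higher, the 1 of 5 that passed, where 11.7% of all genes were, and fell short of 2-fold once cluster 1 was counted as lymphocytes. Fibroblast-marker UMIs summed to 3120 CPM in WT and 2989 CPM in A20ZF7 myeloid cells, and their part in the *S100a6* level was not tested. Myeloid cells with no UMI of lymphocyte markers (74 WT and 267 A20ZF7 cells) were at 1064 and 1183 CPM of *S100a6*. Their ratio was 1.11 (0.880 to 1.41), an interval that spans 1. The lymphocyte markers included the pan-leukocyte gene *Ptprc*, which the myeloid cluster held at 658 CPM over both libraries. The subset thus left out myeloid cells with *Ptprc* RNA of their own, and its ratio cannot be read as free of lymphocyte RNA alone. With every immunoglobulin UMI taken as free, free RNA made up 39.2% of WT and 46.5% of A20ZF7 myeloid UMIs. That share is on the scale of barcodes with 50 to 150 UMIs.

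B-lineage and epithelial cells gave large ratios on a large background. *S100a6* was at 156 CPM (138 to 175) in WT and 623 CPM (598 to 649) in A20ZF7 B-lineage cells, a ratio of 3.998 (3.53 to 4.55), and was the 1 of 4 members that passed the filter to be past 2-fold. *S100a11* lay at the limit, at 146 and 292 CPM, a ratio of 1.9998 (1.74 to 2.30). Of all genes 42.9% were past 2-fold there, with a median ratio of 1.74. Immunoglobulin genes took 572040 CPM of WT and 287656 CPM of A20ZF7 B-lineage UMIs, and with immunoglobulin, mitochondrial and ribosomal protein genes left out of the total the ratios were 2.43 and 1.22. The plasma cell-like cluster 16 was at 41.4 and 202 CPM of *S100a6*, and cluster 13 at 570 and 990 CPM. Cluster 13 made up 31.3% of WT and 62.3% of A20ZF7 B-lineage cells. Its highest marker list of another class was the fibroblast list, at a mean log2 fold of 1.196 over the other clusters. Without cells holding 2 or more UMIs of another class, the B-lineage class kept 78043 of 1758596 WT UMIs and 110549 of 3770822 A20ZF7 UMIs. The part of other-class RNA in the *S100a6* ratio was not tested.

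Epithelial cells were few, 572 in WT and 322 in A20ZF7. *S100a6* was at 316 CPM (293 to 341) and 1318 CPM (1210 to 1433), *S100a11* at 160 and 559 CPM and *S100a13* at 62.9 and 238 CPM, ratios of 4.17, 3.50 and 3.79. WT mice 1 and 2 lay closer to A20ZF7 than the class did, at 519 and 471 CPM of *S100a6*, 229 and 261 CPM of *S100a11* and 89.1 and 121 CPM of *S100a13*, whereas cells with no hashtag call, 367 of the 572, were at 225, 120.2 and 44.5 CPM. Past 2-fold were 3 of 4 members, and 54.5% of all genes, with a median ratio of 1.13. Different clusters held most of the class in the 2 libraries, cluster 19 with 86.2% of WT and 24.2% of A20ZF7 epithelial cells and cluster 23 with 13.8% and 75.8%. *S100a6* was at 297 and 1781 CPM in cluster 19, a ratio of 5.99 (5.22 to 6.86), and at 758 and 950 CPM in cluster 23, a ratio of 1.25 (0.948 to 1.68). In contrast *S100a10* was at 862 CPM (823 to 902) in WT and 858 CPM (771 to 951) in A20ZF7 epithelial cells, a ratio of 0.995 (0.886 to 1.12). *S100a4* had 6 UMIs in WT and 25 UMIs in A20ZF7 epithelial cells.

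**Figure D5:**
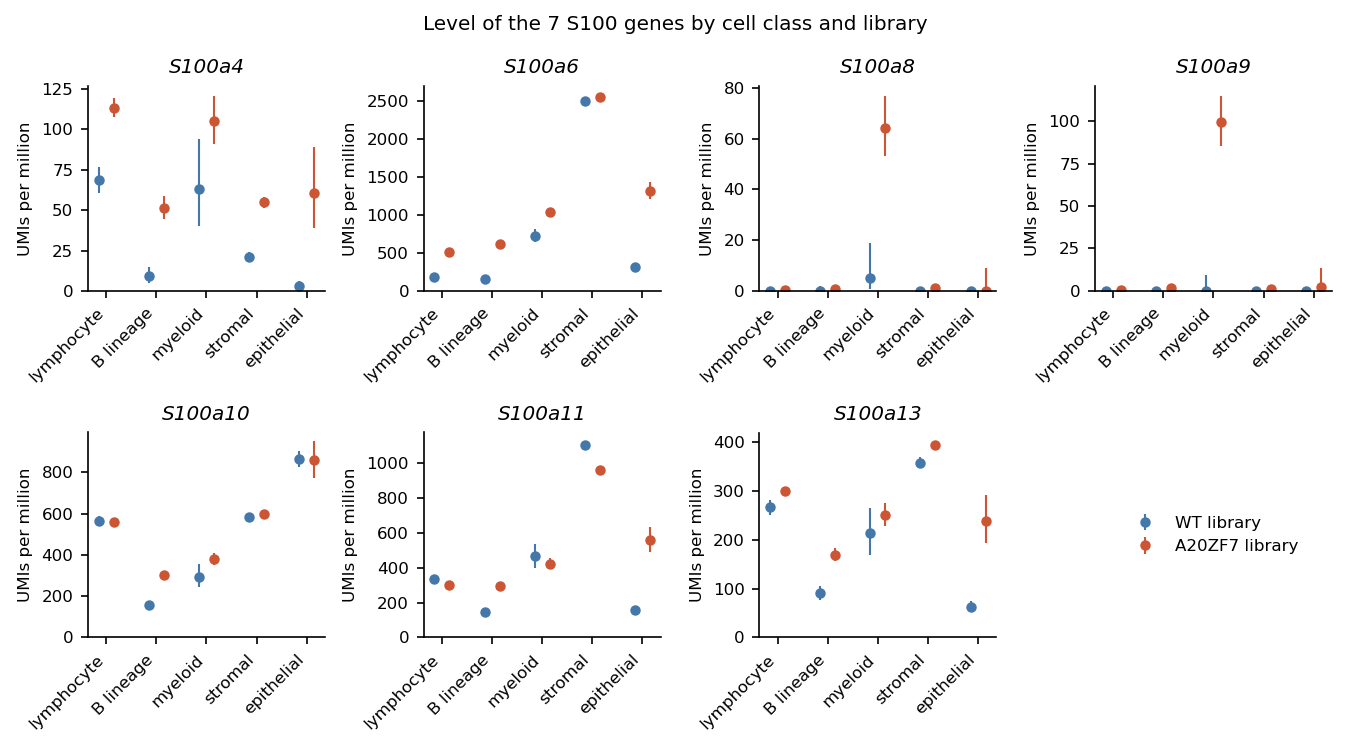
Level in CPM (y axes, a separate scale for each gene) of the 7 genes by cell class (x axis) in the WT library (blue) and the A20ZF7 library (orange), with bars for exact 95% Poisson intervals. *S100a6* and *S100a11* are highest in stromal cells of both libraries, *S100a10* in epithelial cells, and *S100a8* and *S100a9* stand above the axis clearly in A20ZF7 myeloid cells alone among the classes shown.

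*S100a10* and *S100a11* encode the annexin partners of the list. S100A10, which has lost calcium binding, forms a tetramer with annexin A2, and S100A11 pairs with annexin A1. In lymphocytes *S100a10* was at 565 CPM (543 to 588) in WT and 557 CPM (544 to 570) in A20ZF7, a ratio of 0.985 (0.941 to 1.03), and *S100a11* at 332 CPM (315 to 350) and 298 CPM (289 to 308), a ratio of 0.897 (0.844 to 0.954). The WT mice were at 537 and 556 CPM of *S100a10* and at 347 and 330 CPM of *S100a11*. WT cells with no hashtag call were at 314 CPM of *S100a11* (282 to 349), an interval that holds the A20ZF7 value.

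Within lymphocyte groups the A20ZF7 level of *S100a11* was below the WT level in each of the 5 groups, although the interval of the ratio reached 1 in CD8 T-like cells. *S100a11* was at 631 CPM (504 to 780) in WT and 328 CPM (311 to 345) in A20ZF7 Th17-like cells, a ratio of 0.520 (0.417 to 0.655), with WT mice at 567 and 629 CPM. In ILC3-like cells it was at 371 CPM (341 to 403) and 230 CPM (213 to 249), a ratio of 0.621 (0.553 to 0.697), with WT mice at 410 and 326 CPM. *S100a10* was at 781 and 534 CPM in ILC3-like cells, a ratio of 0.684 (0.632 to 0.739), and at 816 and 598 CPM in Th17-like cells, a ratio of 0.733 (0.606 to 0.896). ILC2-like cells went the other way for *S100a10*, at 351 CPM (325 to 380) and 417 CPM (389 to 446), a ratio of 1.19 (1.07 to 1.32). In all of these groups the ratio stayed within 2-fold.

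In stromal cells *S100a11* was at 1104 CPM in WT and 961 CPM in A20ZF7, a ratio of 0.870 (0.850 to 0.891), and *S100a10* at 584 and 597 CPM. The *S100a11* level was 953 CPM in WT mouse 1, 928 CPM in mouse 2 and 1232 CPM in cells with no call, so the A20ZF7 level lay above both WT mice and below the cells with no call. Smooth muscle or pericyte-like and endothelial-like cells went apart for *S100a10*. It was at 271 CPM (251 to 291) and 437 CPM (410 to 465) in smooth muscle or pericyte-like cells, a ratio of 1.61 (1.47 to 1.78). In endothelial-like cells it was at 852 CPM (785 to 923) and 610 CPM (577 to 645), a ratio of 0.717 (0.649 to 0.791).

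*S100a13* encodes a partner in the release of Fgf1 and Il1a, which lack a signal peptide. Its level was 266 CPM (251 to 281) in WT and 299 CPM (289 to 308) in A20ZF7 lymphocytes, a ratio of 1.12 (1.05 to 1.202), within the span of the WT mice and cells with no call (269, 229 and 313 CPM). Stromal cells were at 357 and 392 CPM and myeloid cells at 213 CPM (169 to 264) and 251 CPM (228 to 275), with overlapping intervals in the myeloid class. In smooth muscle or pericyte-like cells it was at 180 and 262 CPM, a ratio of 1.45 (1.29 to 1.64), and in endothelial-like cells at 512 and 410 CPM, a ratio of 0.802 (0.708 to 0.910), the same sides of 1 as *S100a10*.

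Across classes the order of levels differed between the genes. For *S100a10* it was epithelial, stromal, lymphocyte, myeloid and B-lineage cells in both libraries, with overlapping stromal and lymphocyte intervals in WT. For *S100a11* it was stromal, myeloid, lymphocyte, epithelial and B-lineage cells in WT, the last 2 overlapping. In A20ZF7 epithelial cells came directly after stromal cells for this gene, and lymphocytes and B-lineage cells overlapped at 298 and 292 CPM. *S100a13* was highest in stromal cells of both libraries, followed by lymphocytes, whose interval overlapped that of myeloid cells in WT, while myeloid and epithelial cells overlapped in A20ZF7. For *S100a6* the order was stromal, myeloid, epithelial, lymphocyte and B-lineage cells in WT, with overlapping lymphocyte and B-lineage intervals, and stromal, epithelial, myeloid, B-lineage and lymphocyte cells in A20ZF7 with no overlap. For *S100a4* lymphocytes and myeloid cells overlapped at the top in each library.

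Other genes of the pathway were taken from lists. Of the 10 other S100 genes listed in both libraries, none passed the level filter in lymphocytes, and 2 did in stromal cells, *S100a1* (117 CPM in both libraries) and *S100a16* (158 CPM in WT and 157 CPM in A20ZF7), neither past 2-fold. *S100a1* was lower in A20ZF7 myeloid cells, at 47.0 CPM against 136 CPM in WT, a ratio of 0.344. *S100g*, the calcium carrier calbindin-D9k of enterocytes, was at 2871 CPM in WT and 222 CPM in A20ZF7 epithelial cells, a ratio of 0.0772, on the background and with the split of clusters given above for that class. Of 15 partners and receptors, 3 passed the filter in lymphocytes and 0 were past 2-fold (median ratio 1.03), with *Ahnak*, a scaffold that binds the *S100a10* product, at 189 and 176 CPM, *Anxa6* at 136 and 140 CPM and *Myh9*, the myosin bound by the *S100a4* product, at 429 and 472 CPM. In stromal cells 7 passed and 0 were past 2-fold (median ratio 0.839), including *Anxa2* at 371 and 300 CPM and *Anxa1* at 195 and 164 CPM. In myeloid cells 6 passed and 0 were past 2-fold (median ratio 1.03). Of all genes 5.39% were past 2-fold in lymphocytes, 10.6% in stromal cells and 4.3% in myeloid cells.

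Among 7 other alarmins and their kin, 3 passed in stromal cells and 2 of these were higher in A20ZF7, *Saa3*, an acute-phase serum amyloid, at 9.62 and 301 CPM (ratio 31.3) and *Hmgb2* at 157 and 428 CPM (ratio 2.73), where 10.6% of all genes were past 2-fold. In myeloid cells, where 4.3% of all genes were past 2-fold, 4 passed and 2 were higher, *Hmgb2* (270 and 542 CPM, ratio 2.01) and *Saa3* (0 and 133 CPM), while *Il1b* was at 483 and 552 CPM, a ratio of 1.14. In epithelial cells 3 of 3 were higher, among them *Lcn2*, which binds bacterial siderophores, at 3.26 and 207 CPM, on the background of 54.5% of all genes and with the split of clusters given above. In lymphocytes 2 passed and 0 were past 2-fold. Of 10 effector or memory genes, 6 passed in lymphocytes and 0 were past 2-fold (median ratio 1.25). The passing genes above that median were *Vim* at 199 and 310 CPM, *Lgals1* at 196 and 298 CPM and *Crip1* at 490 and 715 CPM. The other passing genes of this list lay below it, as a median requires, so the named genes do not stand for the list. Of 6 naive or central memory genes, 2 passed and 0 were past 2-fold (median ratio 0.983), *Tcf7* at 117 and 96.9 CPM and *Klf2* at 215 and 244 CPM. The median over all genes tested in lymphocytes was 1.02, and 5.39% of them were past 2-fold.

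The WT library had surface antibodies in the same cells, a readout that the choice of genes did not use. The antibodies named below, other than the controls, were picked from the panel for large differences between cells with and without a gene. Their differences are therefore no independent support. In WT lymphocytes the median of CD90.2 (Thy1) antibody was 12.8 per 1000 antibody UMIs in 226 cells with an *S100a4* UMI and 7.17 in 3900 cells without one. The same held for ILC2-like cells, at 12.98 in 36 cells with and 2.65 in 1634 cells without *S100a4*, whose median RNA depths were 1397.5 and 933 UMIs. For *S100a6* the medians were 9.70 in 467 lymphocytes with a UMI and 7.14 in 3659 without. Control antibodies differed less for *S100a4* in lymphocytes, at 2.56 and 2.53 (IgG1), 2.48 and 2.66 (IgG2a) and 0.884 and 0.947 (IgG2b). CD73, an ectoenzyme of memory and regulatory cells, was at 9.01 with and 6.37 without *S100a4*. In endothelial-like cells CD49f, an integrin chain, was at 81.1 in 257 cells with *S100a10* and 65.2 in 226 without. CD31 there was at 61.3 in 238 cells with *S100a13* and 45.1 in 245 without, with no depth or control antibody given for either. These are medians over cells of 1 library, with no test, and lymphocytes with an *S100a4* UMI were deeper (median 1063.5 RNA UMIs) than those without (891).

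Likeness to other genes was measured as Pearson's r of log2(CPM + 20) over 51 pairs of cluster and library, points that share libraries, depth and cell types, so that r is a description without a test. The pair *S100a8* and *S100a9* had r = 0.87 and *S100a6* and *S100a11* 0.84, whereas *S100a4* and *S100a11* had -0.13. *S100a11* and *S100a13* were at 0.62. Among 5612 genes, those most like *S100a6* were *Timp2*, a metalloproteinase inhibitor (0.88), *Pmepa1* (0.87) and *Pmp22* (0.86), and those most like *S100a11* were *Acadsb* (0.87), the matrix proteoglycan gene *Bgn* (0.86) and *S100a6* itself. For *S100a4* they were *March3* (0.83), *Smap2* (0.82) and *Dock11* (0.80), for *S100a13* *Slco3a1* (0.80), *Tgfbr2* (0.80) and *Myl12a* (0.79), and for *S100a10* *Cast* (0.69), *Arf5* (0.67) and *Sri* (0.67). Those of *S100a8* were *Mmp9* (0.76), *Fcgr4* (0.75) and *Tbxas1* (0.73), and those of *S100a9* were *Mmp9* (0.73), *Wfdc17* (0.69) and *Aif1* (0.62), all of them genes of myeloid cells. Of the 392 UMIs of *S100a8* and *S100a9* in kept A20ZF7 cells, 303 lay in the myeloid cluster, 98.3% of these in 7 cells. So 1 of the 51 points can set much of the r between the pair and of the r with the genes most like them.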

How the data were processed

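Single-cell RNA of small intestinal lamina propria cells was measured in 1 WT and 1 A20ZF7 library, each of 2 pooled mice. The deposited values are raw UMI counts per gene and barcode, unfiltered, which the authors made from a 10x 5′ kit with Cell Ranger (version 7.1 in the submitters' processing notes, 8.0.0 in the file headers) on mm10, followed by R 4.3.3 and Seurat 4.3. The WT file lists 33696 genes and the A20ZF7 file 32285, so that gene models may differ between the libraries; the 31950 shared IDs were used, and the effect on the members' counts was not tested. Antibody counts were deposited too, but the A20ZF7 antibody files are identical to those of WT and were not used. The other files were read in full, and 0 columns of other samples were found.

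Library totals were 35289432 UMIs in WT and 54587004 UMIs in A20ZF7. Barcodes with at least 200 genes, at most 2500 genes, at most 15% mitochondrial UMIs and at least 676 (WT) or 397 (A20ZF7) UMIs were kept, the UMI minimum being the 99th percentile of the top barcodes divided by 10. WT barcodes called for both hashtags by HTODemux (2572) were removed, and doublets were otherwise left in. No A20ZF7 barcode could be removed this way, so doublets were handled unequally in the libraries, and the effect on the genotype ratios was not tested. Clusters came from Seurat 5.3.0 in R 4.3.3 (2000 variable genes without S100 genes, 30 principal components, cell cycle regressed out, Louvain resolution 0.8), and names from marker lists alone, always as "X-like" groups. Clustering was run with 1 thread and 1 fixed processor kernel of the linear algebra library, because cluster membership changed with its floating-point arithmetic. Values of an earlier run had been seen before this setting was fixed. Counts were summed per class and library in Python 3.11.15 (pandas 2.3.3, scipy 1.17.1, numpy 2.4.6), and plots were drawn with matplotlib 3.10.9. Levels carry exact Poisson intervals, shares exact binomial (Clopper-Pearson) intervals and ratios exact conditional intervals, all at 95%, and where a count was 0 the floor was 3 UMIs per library. A gene was counted as past 2-fold only from a level of 100 CPM and a count of 20 UMIs upward on the higher side. No test was made. The scripts were tested on simulated data.

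The genes named are the 7 members, the other S100 genes, and lists of partners and receptors, other alarmins, and effector or naive lymphocyte genes, plus the 3 genes most like each member over clusters. *Retnlg*, *Cxcl2*, *Wfdc17* and the other genes given for the calprotectin barcodes were chosen partly after values had been seen, as were the limit of 14 UMIs and the subsets of cells without other-class UMIs. Members and lists were chosen with earlier results of these data known. Promoters and gene positions come from RefSeq tables of GRCm38.p6.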

Additional observations from a re-analysis of the deposited data

Results flagged for a closer look

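Ratios of A20ZF7 to WT lay on different sides of 1, or far apart, in different lymphocyte groups, and these differences were not tested. For *S100a6* the ratio was 2.72 in unnamed cluster 1, 4.92 in CD8 T-like cells, 3.17 in ILC2-like cells and 1.69 in ILC3-like cells, but 0.716 in Th17-like cells. The A20ZF7 Th17-like level lay between WT mouse 1 (486 CPM) and WT mouse 2 (398 CPM), while WT cells with no call were at 1191 CPM. The CD8 T-like ratio was below 2-fold among cells with at least 1000 UMIs, as given above. For *S100a10* the ratio was 1.19 in ILC2-like cells, but 0.733 in Th17-like and 0.684 in ILC3-like cells.

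Signals were also found in barcodes outside the cells used. Barcodes with at least 200 genes that were not kept as cells held 110 UMIs of *S100a8* and *S100a9* in A20ZF7 and 8 in WT. In barcodes with 1 to 9 UMIs *S100a4* was at 1962 CPM in WT and 1819 CPM in A20ZF7, against 32.0 and 84.9 CPM in barcodes with 800 or more UMIs.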

How the results depend on the processing

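No paired analysis was possible because each genotype was 1 library of pooled mice. Over the alternatives, 778 member ratios were recomputed: 668 stayed within the counting interval of the reported value, 110 moved outside it, 36 moved by over 1.5 times, 44 lay on the other side of 1, and 0 that were past 2-fold changed direction. The lymphocyte ratio of *S100a6* ranged from 2.59 to 3.45 and that of *S100a4* from 1.37 to 1.91 over 16 alternatives, and the geometric means of the ratios within clusters were 1.83, below that range and below 2-fold, and 1.45. With another processor kernel 85.6% of the 57866 cells kept their class, and cluster 1 was named naive or central memory T-like and joined the lymphocytes. A cluster led by dividing genes (158 WT and 2497 A20ZF7 cells) joined them too, so the class held 27330 cells against 19282 as reported. The lymphocyte ratios were then 2.65 for *S100a6* and 1.89 for *S100a4*. Counts of members past the limit are given next, without the share of all genes, which was not computed for the alternatives. Changes in these counts are therefore not read as results about the members. The count of members past 2-fold in lymphocytes, 1 as reported, was 2 at a limit of 1.5-fold. In myeloid cells the count between genotypes was 0 as reported. It was 1 through *S100a9* with the limit of 200 genes alone, at resolution 0.4 or with the other kernel. The same held with mitochondrial, ribosomal protein and immunoglobulin genes left out of the total. It was 1 through *S100a4* without the cells called as WT mouse 2 or at 1.5-fold. It was 2 with free RNA taken off by either set of small barcodes, and 3 under a gate on marker UMIs or in cells without lymphocyte UMIs. For myeloid over lymphocyte cells in WT the count of 1 became 2 without cells holding 2 or more UMIs of another class, and 0 under the gate. In A20ZF7 the count of 1 became 0 with an upper limit of 5000 genes, at resolution 1.2, with cluster 1 counted as lymphocytes, without cells holding 2 or more UMIs of another class or thinned to 500 UMIs, and 3 under the gate or with free RNA taken off. Without cells holding 2 or more UMIs of another class, the myeloid class kept 875 UMIs in WT and 11218 in A20ZF7. Under the gate it held 11229 and 7490 UMIs. Members then have few UMIs, and a member with 0 UMIs, set to the floor of 3 UMIs, can count as past 2-fold. Nothing is drawn from the myeloid counts in these settings. The causes were not tested. The other kernel, cluster 1 counted as lymphocytes, the free RNA share from 50 to 150 UMIs, the subsets without other-class UMIs and the analysis without the 14-UMI barcodes were chosen after seeing the data. Counts of 2 and 0 UMIs in WT myeloid cells limit *S100a8* and *S100a9*, and 6 and 25 UMIs limit epithelial *S100a4*.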

Other observations

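Fibroblast-like cells with an *S100a4* UMI held more *Ptprc* and *Thy1* than those without one in both libraries. *Ptprc*, the pan-leukocyte phosphatase, was at 256 CPM with and 148 CPM without *S100a4* in WT, and at 490 and 360 CPM in A20ZF7. *Thy1* was at 201 and 55.0 CPM in WT and 221 and 120 CPM in A20ZF7. *Trac*, the T cell receptor alpha constant gene, was at 55.4 CPM (23.9 to 109) and 52.0 CPM in WT, with overlapping intervals, and at 217 and 136 CPM in A20ZF7. *Col1a1*, a fibroblast collagen, was at 1564 and 1763 CPM in WT and 1109 and 1463 CPM in A20ZF7. Cells with the UMI were deeper, with medians of 1527 and 1115.5 UMIs in WT and 1616 and 1010 UMIs in A20ZF7. In WT smooth muscle or pericyte-like cells *Ptprc* and *Thy1* went the other way, at 140 and 154 CPM and at 49.3 and 61.7 CPM, with overlapping intervals. In A20ZF7 cells of that group they were at 483 and 382 CPM and at 203 and 149 CPM, also with overlapping intervals. *Trac* in the same A20ZF7 cells was at 280 CPM (213 to 362) with and 152 CPM (135 to 170) without *S100a4*, with no overlap. In WT cells of that group *Trac* was at 74.0 and 66.7 CPM, with overlapping intervals. All of these are values of cells chosen by a UMI, with no test.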
